A study of Mus musculus with 16 samples.

Results

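The mevalonate pathway to squalene was represented by 9 enzyme genes, taken by symbol from a table of counts per gene in mouse gonadal fat. The list runs along the route from acetoacetyl-CoA: Acat2, Hmgcs1, Mvk, Pmvk, Mvd, Idi1, Fdps, Ggps1 and Fdft1. These are 9 of 24454 rows in the table, and all 9 passed the filter on low counts that kept 16682 genes for testing. The members were listed as enzymes of the route, but with earlier results of these data known. Not every step of the route is among them.

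PolyA RNA was sequenced from the gonadal fat of C57BL/6J mice, an inbred strain, which were lean, male, 16 weeks old and kept on chow. Every mouse had surgery, either a sham operation or subdiaphragmatic vagotomy (sDVX), which cuts the vagus nerve below the diaphragm. From 4 weeks after surgery each received an infusion into the cerebral ventricles by osmotic minipump for 2 weeks, either vehicle or SHU9119, a peptide antagonist of brain melanocortin receptors, at 1 nmol per day, and all groups were fed isocalorically in that time. The 4 groups of 4 libraries carry the names of the labels. Sham_Veh had the sham operation and vehicle, Sham_SHU the sham operation and SHU9119, VX_Veh had sDVX and vehicle, and VX_SHU had sDVX and SHU9119. Whether the libraries of a group are from different mice is not stated in the labels, and the tests therefore measure only how these libraries vary.

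The mevalonate pathway turns acetyl-CoA into isoprenoid units and is the only source of the carbon of cholesterol made in the cell. Its early enzymes build mevalonate, its middle enzymes phosphorylate and decarboxylate it to isopentenyl diphosphate, and its late enzymes join these units into farnesyl and geranylgeranyl diphosphate. Squalene synthase then commits farnesyl diphosphate to sterols, whereas other enzymes use the prenyl diphosphates for protein prenylation, ubiquinone and dolichol. Many genes of the route are known targets of SREBP-2, a transcription factor released when sterols in the endoplasmic reticulum are low. Fat cells take up much of their cholesterol from lipoproteins, store a large pool of it around the lipid droplet and also make some.

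Promoter sequences are shown because members of the route varied together across libraries. Promoter windows in RefSeq (GRCm38.p6) were matched by symbol to 7 of the 9 members, in 8 windows, and the 250 bases before each start were searched on both strands for 4 motifs. An 8-letter core of the sterol regulatory element, CACCCCAC, was in 2 of the 8 windows and in 2.58% of 32851 windows of the same length. The CCAAT box, CCAAT, was in 6 of 8 against 33.8%, and the GC box, GGGCGG, in 5 of 8 against 32.7%. The E box CACGTG was in 0 of 8 against 6.02%. No 2 matches overlapped in any member window. Pmvk has more than 1 window, and 144 bases of the one further along the gene lie in a Pmvk exon. The Idi1 window overlaps an exon of Gm48574 over 250 bases, and the Ggps1 window an exon of Arid4b over 118 bases. G and C made up 47.6% to 64.8% of the member windows, against a median of 52.4% over all windows. These are matches of letters and do not show binding, and a window with no match says only that these letters are not in it. The Acat2 and Hmgcs1 windows hold the sterol regulatory element core and the Mvd window does not, and all 3 are printed 5′ to 3′ on the strand of the gene with the matched letters in capitals. They lie at chr17:12960726-12960975 (minus strand), chr13:119690101-119690350 (plus strand) and chr8:122443423-122443672 (minus strand). In Hmgcs1 the core lies at -136 to -129 from the start, with CCAAT boxes on the opposite strand at -176 to -172 and -45 to -41. In Acat2 it lies at -181 to -174. In Mvd the capitals are 1 GC box and 2 CCAAT boxes.
Acat2: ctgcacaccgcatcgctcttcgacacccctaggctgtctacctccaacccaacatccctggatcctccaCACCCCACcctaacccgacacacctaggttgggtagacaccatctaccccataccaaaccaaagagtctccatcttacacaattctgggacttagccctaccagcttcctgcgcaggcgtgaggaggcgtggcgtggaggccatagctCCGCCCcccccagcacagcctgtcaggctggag
Hmgcs1: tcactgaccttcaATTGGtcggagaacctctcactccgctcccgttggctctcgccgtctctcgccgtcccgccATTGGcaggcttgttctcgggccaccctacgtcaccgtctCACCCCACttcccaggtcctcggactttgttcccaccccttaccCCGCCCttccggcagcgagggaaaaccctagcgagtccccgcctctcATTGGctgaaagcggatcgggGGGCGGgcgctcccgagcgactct
Mvd: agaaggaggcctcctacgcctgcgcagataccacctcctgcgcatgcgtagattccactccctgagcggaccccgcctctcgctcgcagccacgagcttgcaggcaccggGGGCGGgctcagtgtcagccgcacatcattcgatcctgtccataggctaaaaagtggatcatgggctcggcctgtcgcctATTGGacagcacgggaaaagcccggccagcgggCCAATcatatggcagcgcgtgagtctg

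The members are spread over the mouse genome, and some share sequence with other genes. In GRCm38.p6 coordinates from RefSeq, Acat2 is at chr17:12943042-12960725, Hmgcs1 at chr13:119690351-119708260, Mvk at chr5:114444264-114460591 and Pmvk at chr3:89454541-89469014. Mvd is at chr8:122433596-122443422, Idi1 at chr13:8885606-8892396, Fdps at chr3:89093588-89101967, Ggps1 at chr13:14049790-14063566 and Fdft1 at chr14:63145150-63181687. Of the 50-base words in their GENCODE transcripts, the share also found in transcripts of another gene was 80.6% for Fdps, 40.7% for Acat2, 30.7% for Fdft1, 30.5% for Idi1, 13.3% for Hmgcs1 and 11.1% for Ggps1. It was 0 for Mvk, Pmvk and Mvd. For Fdps the words were shared with 8 genes, led by the overlapping model Gm43738, and 0 of the 8 had a row in the table used here. Acat2 shares words with its neighbour copy Acat3, which averaged 2.11 CPM, and with Tcp1, which averaged 157.2 CPM. Because the strand setting of the counting is not given, reads of Fdft1 cannot be told apart from those of Ctsb where the 2 genes overlap on opposite strands, over 18.3% of the Fdft1 exon bases. Idi1 shares words with 5 genes, and 9.22% of its exon bases overlap another gene model. Levels of Fdps, Acat2, Fdft1 and Idi1 are for this reason less certain than those of Mvk, Pmvk and Mvd.

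Levels are given as CPM, the usual depth-scaled count of RNA sequencing, with library sizes adjusted by TMM factors. Library totals were 20425295 to 30889052 counts with 18227 to 20253 genes detected, and the members were well covered, from the 196 counts of Mvd in its lowest library to the 9965 counts of Hmgcs1 in its highest. All 10 adipocyte markers were present in every library, with Adipoq, which encodes adiponectin, at 1205 to 3957 CPM. Their sum was 14950 CPM in VX_Veh1 and up to 46150 CPM in Sham_Veh3. Some libraries also held transcripts of adjacent tissue: the 16 epididymis markers summed to 11820 CPM in VX_Veh4 and 12200 CPM in VX_SHU4, and the 12 testis and sperm markers to 3097 CPM in Sham_Veh4. In bulk tissue, fewer cells of a type and less RNA per cell cannot be told apart.

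Infusion of SHU9119 in sham-operated mice was compared first, and 7 of the 9 members stood 1.67 to 3.03 times higher on average in Sham_SHU than in Sham_Veh. Ggps1 and Fdft1 were the exceptions, at 1.07 and 1.15 times. None of the 9 passed the edgeR quasi-likelihood test after Benjamini-Hochberg adjustment over all 16682 genes (adjusted p from 0.0597 to 0.607), where 0.114% of all genes passed. At an unadjusted p under 0.05 there were 7 members, against 19.6% of all genes.

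Hmgcs1, the cytosolic synthase that makes HMG-CoA, was at 211, 315, 202 and 207 CPM in Sham_Veh1 to Sham_Veh4. In Sham_SHU1 to Sham_SHU4 it was at 473, 397, 340 and 443 CPM. The groups did not overlap, and the highest vehicle library, Sham_Veh2, still lay below the lowest SHU9119 library, Sham_SHU3. The log2 fold change was 0.82 ± 0.179 (SE; edgeR adjusted p = 0.0687). Acat2, the cytosolic thiolase that makes acetoacetyl-CoA, was at 67.2, 52.6, 105 and 60.5 CPM in the 4 Sham_Veh libraries. It was at 150, 188, 81.8 and 132 CPM in Sham_SHU. Here the groups overlapped, because Sham_Veh3 lay above Sham_SHU3, and the log2 fold change was 0.95 ± 0.264 (edgeR adjusted p = 0.0976).

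The 3 enzymes that turn mevalonate into isopentenyl diphosphate were next. Mvk, mevalonate kinase, was at 20.4, 20.7, 24.2 and 19.8 CPM in Sham_Veh. It was at 32.8, 52.1, 26.5 and 30.7 CPM in Sham_SHU, with no overlap and a log2 fold change of 0.74 ± 0.20 (edgeR adjusted p = 0.0931). Sham_SHU2 alone stood well above the rest of its group. Pmvk, phosphomevalonate kinase, was at 49.3, 44.7, 81.2 and 41.6 CPM in Sham_Veh, and at 126, 122, 63.0 and 94.4 CPM in Sham_SHU. As with Acat2, Sham_Veh3 was above Sham_SHU3, so these groups overlapped (log2 fold change 0.90 ± 0.287, edgeR adjusted p = 0.128). Mvd, the decarboxylase that makes isopentenyl diphosphate, was at 8.74, 7.90, 8.76 and 7.04 CPM in Sham_Veh. Its values in Sham_SHU were 20.6, 33.1, 12.1 and 22.3 CPM. These groups did not overlap, the vehicle libraries lay close together, and the log2 fold change was 1.44 ± 0.316 (edgeR adjusted p = 0.0687).

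Idi1, the isomerase that makes dimethylallyl diphosphate, had the smallest p of the 9 members. It was at 64.1, 58.5, 54.6 and 68.8 CPM in Sham_Veh and at 135, 147, 80.0 and 119 CPM in Sham_SHU. All SHU9119 libraries were above all vehicle libraries, and the log2 fold change was 0.97 ± 0.176 (edgeR adjusted p = 0.0597). Fdps, which condenses these units to farnesyl diphosphate, had the highest fold change of the members. It was at 30.1, 34.0, 53.1 and 38.1 CPM in Sham_Veh and at 123, 149, 75.7 and 124 CPM in Sham_SHU, without overlap, for a log2 fold change of 1.60 ± 0.440 (edgeR adjusted p = 0.0970). Sham_SHU3 was the lowest SHU9119 library for each of the 7 genes from Acat2 to Fdps.

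Both branch enzymes after farnesyl diphosphate had lower fold changes than the other 7 members in the fit to all libraries. Ggps1, which extends farnesyl to geranylgeranyl diphosphate, ranged from 27.0 to 29.7 CPM in Sham_Veh and from 28.6 to 32.4 CPM in Sham_SHU (log2 fold change 0.10 ± 0.0609, edgeR adjusted p = 0.366). Its SE was the smallest of the 9 members. Fdft1, squalene synthase, was at 68.3, 65.5, 108 and 129 CPM in Sham_Veh and at 100, 115, 98.9 and 111 CPM in Sham_SHU. The vehicle libraries fell on both sides of the SHU9119 libraries, and the log2 fold change was 0.20 ± 0.209 (edgeR adjusted p = 0.607). The value for Fdft1 depended on the libraries used: it was 0.70 (edgeR adjusted p = 0.0833) without the 6 libraries with 500 CPM or more of markers of epididymis or of testis, which took out Sham_Veh3 and Sham_Veh4, its 2 highest vehicle libraries. With limma-voom, which weights libraries, Fdft1 stood at 0.56 (adjusted p = 0.0135). Ctsb, the lysosomal protease gene that overlaps it, was at 1536 ± 301 CPM in Sham_Veh and 2152 ± 436 CPM in Sham_SHU (SD, n = 4).

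**Figure D1:**
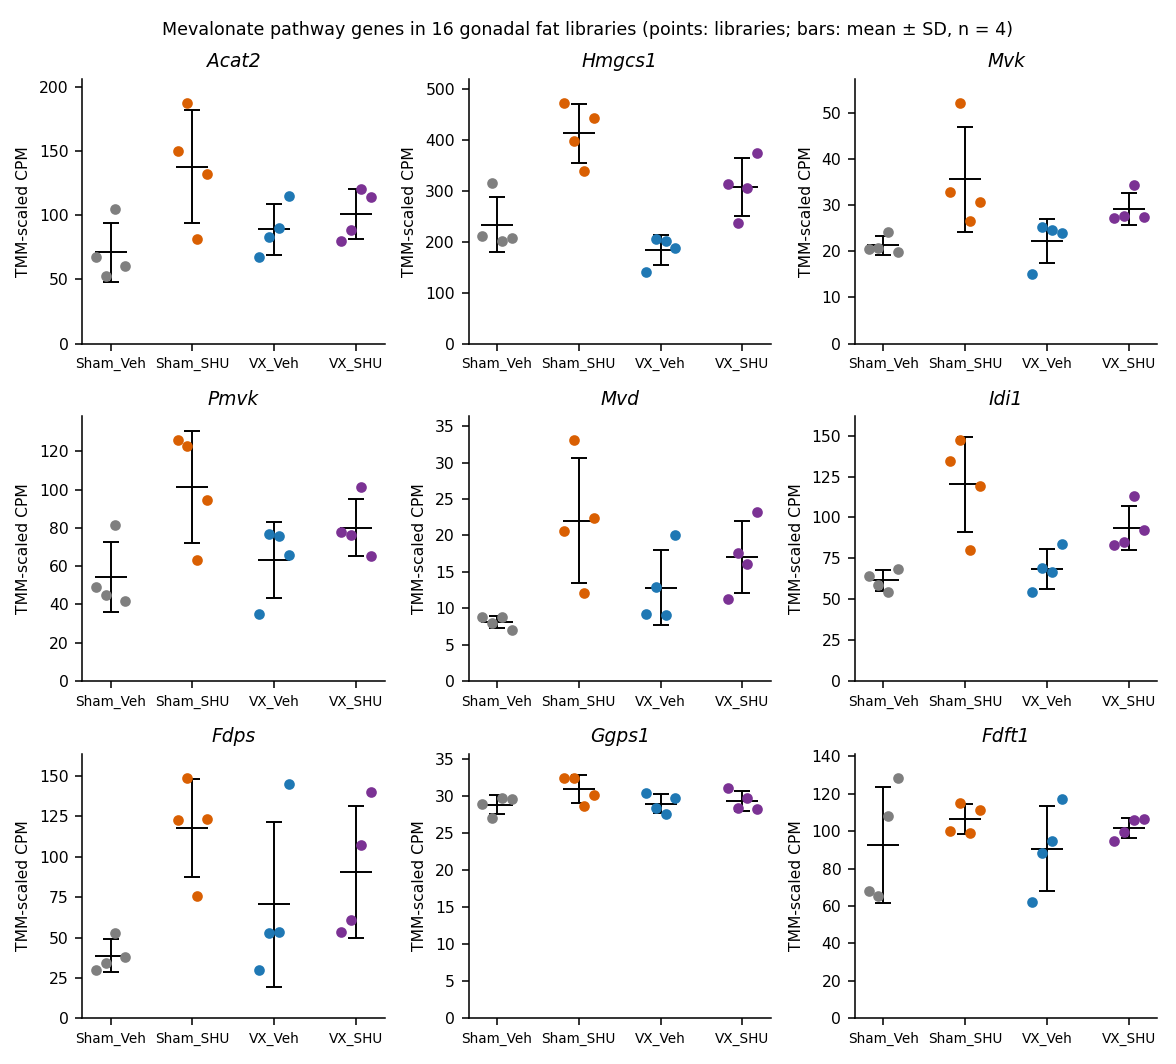
TMM-scaled CPM of each member in the 16 libraries, with points for libraries and bars for the mean ± SD of 4. Hmgcs1, Mvk, Mvd, Idi1 and Fdps have every Sham_SHU point above every Sham_Veh point, Ggps1 lies between 27.0 and 32.4 CPM everywhere, and axes differ between panels.

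In all, 5 of the 9 members had every Sham_SHU library above every Sham_Veh library, a pattern shown by 5.6% of all genes, and the median log2 fold change over the members was 0.90 against -0.06 over all genes. The count of calls depended on the tool: DESeq2 called 7 members, all but Ggps1 and Fdft1, against 8.74% of the genes it tested, and limma-voom with sample weights called 8, all but Ggps1, against 23.2%. It depended on single libraries as well: edgeR called 7 members without Sham_SHU3, 5 without VX_Veh1 (Hmgcs1, Mvk, Mvd, Idi1 and Fdps) and 1, Idi1, without VX_SHU3, while the genes called over the whole table were 982, 527 and 178. The median over the members was 0.78 to 1.08 with any single library left out.

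Markers of other cells moved with the same comparison. Of 12 genes of ciliated epithelium, 10 were found, and all 10 had a lower mean in Sham_SHU, with a median log2 fold change of -2.81 and 0 called by edgeR. Their summed level was 6.65 to 394 CPM in Sham_Veh and 8.78 to 141 CPM in Sham_SHU, and no found gene was at 0 in these libraries. With that sum as a covariate on the log2 scale, the median over the members was 0.65 in place of 0.90. Idi1 was then at 0.80 (edgeR adjusted p = 0.144) and Fdps at 1.07 (adjusted p = 0.182). Markers of adipocytes were higher in Sham_SHU for 8 of 10 genes, with a median of 0.21. With their sum as a covariate edgeR called 7 members, with Idi1 at 0.96 (adjusted p = 0.00963), while 1622 genes passed over the whole table. Liver markers were higher in Sham_SHU for 5 of 5 genes (median 0.72), summing to 23.2 to 2086 CPM in Sham_Veh and 86.2 to 2850 CPM in Sham_SHU, and with their sum as a covariate the median over the members was 0.98. Mesothelium markers were lower for 8 of 8 (median -0.64), at 101 to 186 CPM in Sham_Veh and 35.7 to 133 CPM in Sham_SHU, and testis and sperm markers for 12 of 12 (median -0.84), at 59.7 to 3097 CPM and 91.7 to 1521 CPM. None of these genes was called, and the part of mesothelium in the members' values was not tested. Without the 6 libraries with 500 CPM or more of markers of epididymis or of testis, the median over the members was 1.21 and 0 were called (Idi1 adjusted p = 0.0833). Leaving out those 6 took Sham_Veh3, Sham_Veh4, Sham_SHU3, Sham_SHU4, VX_Veh4 and VX_SHU4, so 2 libraries stood in each sham group.

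**Figure D2:**
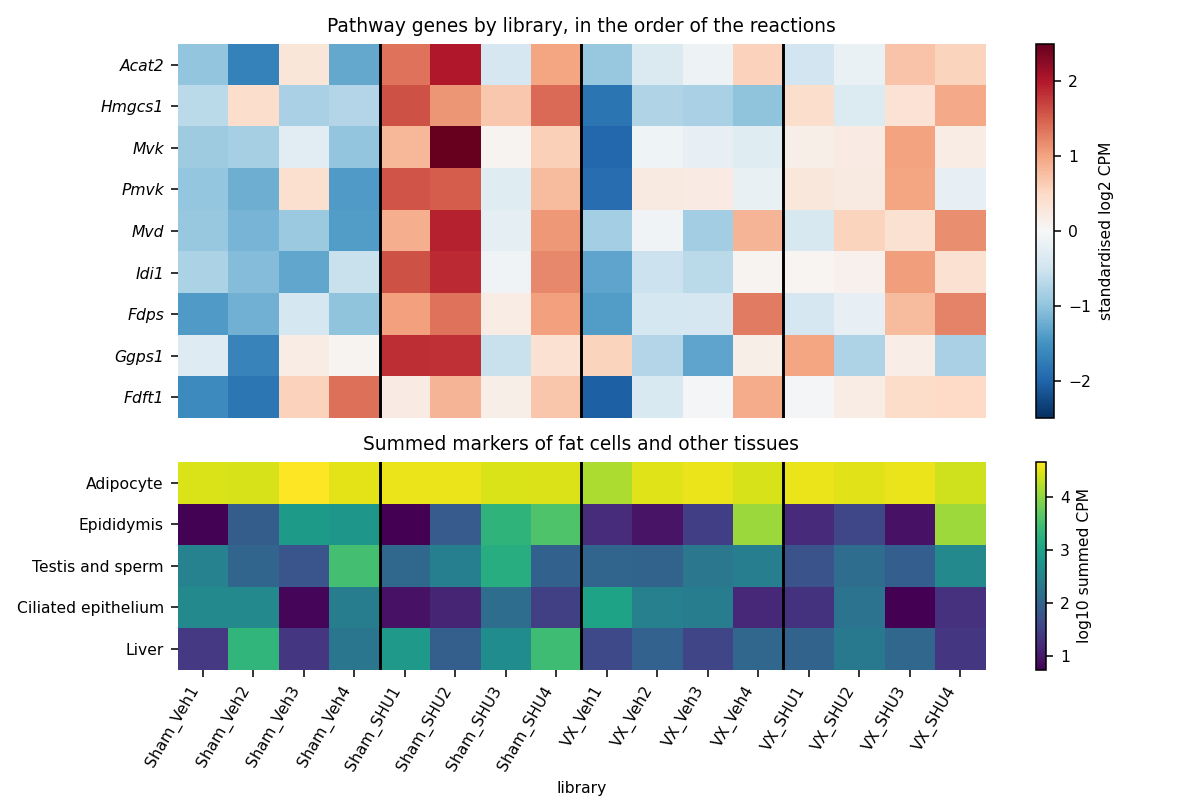
Standardised log2 CPM of the 9 members by library (upper panel; red higher, blue lower) above the log10 summed CPM of 5 marker lists (lower panel), with black lines between groups. Sham_SHU1, Sham_SHU2 and Sham_SHU4 are red for all members, Sham_SHU3 shows both colours, and VX_Veh1 is blue for 8 of the members, with the highest ciliated sum, 1063 CPM.

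After sDVX all 9 members had a higher mean under SHU9119, by smaller amounts, except that Ggps1 (0.02) turned to -0.00646 without VX_Veh3 and -0.0104 without VX_SHU1. Their median log2 fold change was 0.36, against -0.02 over all genes. None passed the edgeR test (adjusted p from 0.427 to 0.941), where 0.00599% of genes passed, and 2 had an unadjusted p under 0.05, against 11.6% of genes. DESeq2 called 1 member, Hmgcs1 (adjusted p = 0.0201), against 0.486% of genes, and limma-voom called 0 against 0.12%.

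Hmgcs1 was at 140, 206, 201 and 188 CPM in VX_Veh and at 313, 237, 305 and 375 CPM in VX_SHU. The groups did not overlap, and the log2 fold change of 0.74 ± 0.179 (edgeR adjusted p = 0.427) was close to the 0.82 seen after sham surgery. Mvk was the other member without overlap, with 15.1, 25.3, 24.6 and 24.0 CPM in VX_Veh and 27.1, 27.6, 34.4 and 27.4 CPM in VX_SHU (0.39 ± 0.20). Such a pattern, with all libraries higher, was shown by 2.93% of genes. Idi1 was at 54.2, 69.3, 66.5 and 83.7 CPM in VX_Veh and at 83.4, 85.0, 113 and 92.6 CPM in VX_SHU. The groups touched only at VX_Veh4, which lay above VX_SHU1, and the log2 fold change was 0.45 ± 0.175 (edgeR adjusted p = 0.427).

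Fdps and Mvd varied most within the sDVX groups. Fdps was at 30.2, 52.9, 53.7 and 145 CPM in VX_Veh and at 53.6, 60.6, 107 and 140 CPM in VX_SHU. The highest vehicle value was in VX_Veh4 and the highest SHU9119 value in VX_SHU4, the 2 libraries with most epididymis transcripts. The log2 fold change of Fdps was 0.36 ± 0.430, and 0.0657 to 0.987 with any single library left out. Mvd was at 9.14, 13.0, 9.03 and 20.1 CPM in VX_Veh and at 11.2, 17.5, 16.1 and 23.2 CPM in VX_SHU (0.41 ± 0.310), again highest in the same libraries. Without VX_Veh4 and VX_SHU4 the log2 fold change of Fdps was 0.69 and that of Mvd 0.53. Acat2 (0.18 ± 0.262), Pmvk (0.34 ± 0.285), Fdft1 (0.17 ± 0.209) and Ggps1 (0.02 ± 0.0609) overlapped between the groups.

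Ciliated markers were lower for all 10 found genes under SHU9119 after sDVX as well, with a median log2 fold change of -2.96. Their sum was 15.4 to 1063 CPM in VX_Veh and 5.59 to 176 CPM in VX_SHU, with at most 1 of the 10 genes at 0 in a VX_Veh library and at most 2 in a VX_SHU library. With that sum as a covariate, the median over the members was -0.02, Hmgcs1 stood at 0.67, and Acat2, Pmvk, Fdps, Ggps1 and Fdft1 were below 0 (from -0.20 to -0.02). Adipocyte markers were higher in VX_SHU for 10 of 10 genes (median 0.32), and their sum was 14950 to 35010 CPM in VX_Veh and 24430 to 36050 CPM in VX_SHU. With that sum as a covariate the median over the members was 0.23 in place of 0.36. Macrophage markers were higher for 8 of 8 (median 0.42), at 460 to 767 CPM in VX_Veh and 679 to 989 CPM in VX_SHU, and liver markers for 5 of 5 (median 0.37). None of these genes was called, and the part of macrophages was not tested. A covariate that tracks the infusion can take up part of a difference between infusions, and the 2 cannot be told apart in these libraries.

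**Figure D3:**
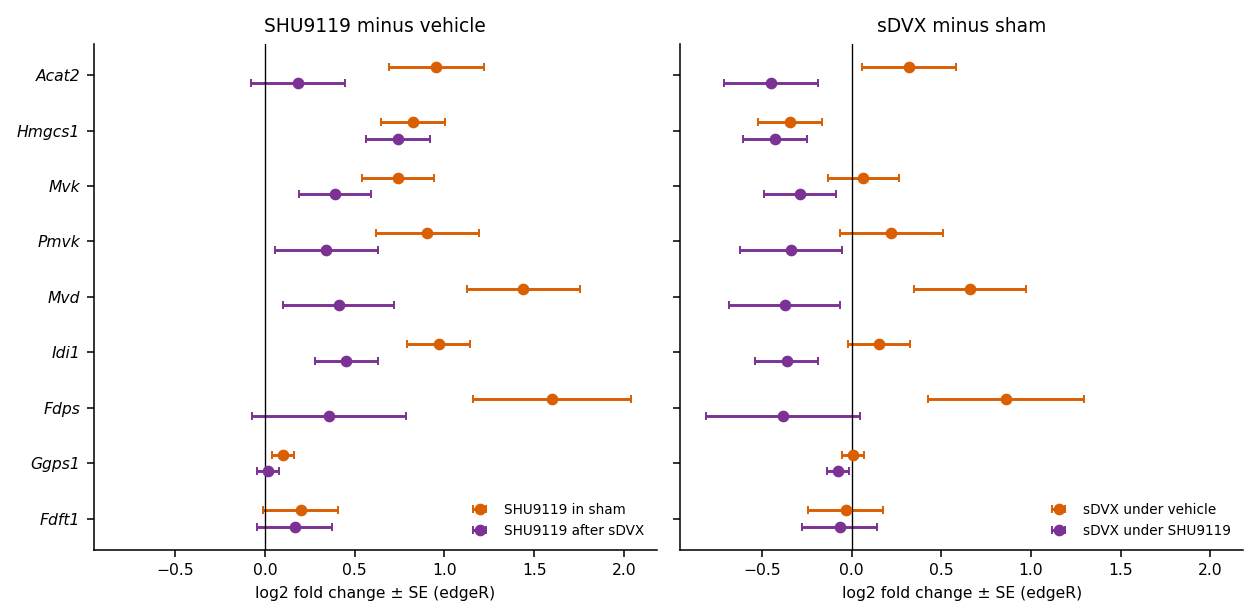
Log2 fold changes ± SE of the 9 members from the edgeR fit, for SHU9119 minus vehicle (left) and sDVX minus sham (right). Points for SHU9119 in sham lie right of those after sDVX for each member, at 0.82 and 0.74 for Hmgcs1 and at 1.60 and 0.36 for Fdps, and the sDVX points under SHU9119 are all left of 0.

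Averaged over both surgeries, 2 members rose under SHU9119, where 1.87% of all genes passed. Hmgcs1 rose by 0.78 ± 0.127 on the log2 scale, or 1.72 times (edgeR adjusted p = 0.0238), and Idi1 by 0.71 ± 0.124, or 1.64 times (edgeR adjusted p = 0.0301). Mvd (0.93 ± 0.221, adjusted p = 0.0505) and Mvk (0.57 ± 0.141, adjusted p = 0.0551) just missed the threshold of 0.05 in the edgeR test. Fdps (0.98 ± 0.307), Pmvk (0.62 ± 0.202) and Acat2 (0.57 ± 0.186) had edgeR adjusted p of 0.0813 to 0.0870, while Ggps1 (0.06 ± 0.0431) and Fdft1 (0.18 ± 0.148) had 0.391 and 0.440. At an unadjusted p under 0.05 there were 7 members, against 28.5% of genes. DESeq2 called 7 members against 17.6% of genes, and limma-voom 8 against 23.4%. Among markers of other cells, edgeR called 3 of 6 stroma genes, against 1.87% of all genes, with 3 higher and 3 lower. Ciliated markers were lower for 10 of 10 found genes (median -2.9). Testis and sperm markers were lower for 12 of 12 (-0.39) and mesothelium markers for 8 of 8 (-0.34). Liver markers were higher for 5 of 5 (0.64) and adipocyte markers for 9 of 10 (0.26). The part of stroma in the members' values was not tested.

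Neither the call of Hmgcs1 nor that of Idi1 held in every fit. Hmgcs1 passed in 8 of 16 fits with 1 library left out, and its adjusted p was 0.0514 to 0.0674 without Sham_Veh1, Sham_Veh3, Sham_SHU1, Sham_SHU2, Sham_SHU4, VX_Veh3, VX_SHU1 or VX_SHU3. Idi1 passed in 7 of 16, and its adjusted p was 0.0592 to 0.0740 without any of those libraries or without Sham_Veh2. Over the same 16 fits the log2 fold change was 0.73 to 0.89 for Hmgcs1 and 0.66 to 0.79 for Idi1. Without Sham_SHU3, 6 members passed, and without VX_Veh4, 5 passed, while the genes called over the whole table were 1612 and 859. With the sum of liver markers as a covariate neither passed (Hmgcs1 0.73, adjusted p = 0.0635; Idi1 0.71, adjusted p = 0.0711), and 3 genes passed in all. No member passed with the ciliated sum as a covariate (Hmgcs1 0.71, adjusted p = 0.302; Idi1 0.54, adjusted p = 0.302), and 8 passed without the 6 libraries with epididymis or testis transcripts, among them Fdft1 (0.51, adjusted p = 0.0326), where 4062 genes passed in all.

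**Figure D4:**
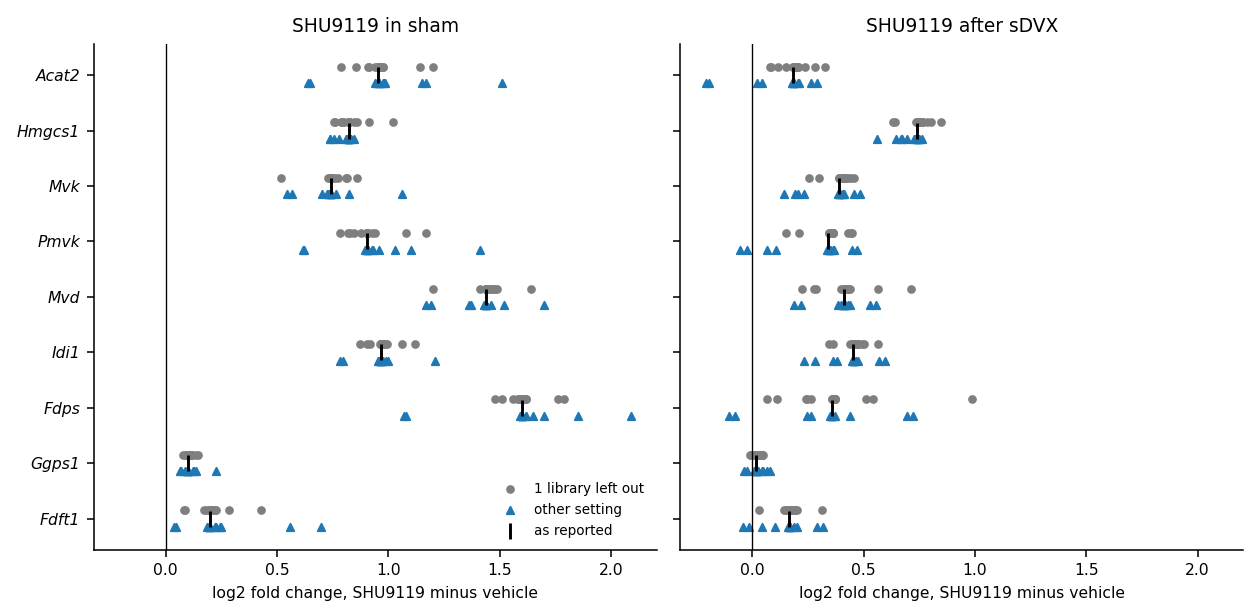
Log2 fold change of each member for SHU9119 after sham surgery (left) and after sDVX (right), with the reported value as a black tick, fits with 1 library left out as grey points and other settings as blue triangles. After sham surgery every value lies right of 0 for the 9 members, whereas after sDVX the values of Acat2, Pmvk, Fdps, Ggps1 and Fdft1 fall on both sides of it.

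By edgeR, no member was called for sDVX itself, under vehicle or under SHU9119. Under vehicle, 7 were higher and 2 lower in VX_Veh than in Sham_Veh, with a median log2 fold change of 0.15 against 0.01 over all genes. Signs near 0 were not stable: Ggps1 (0.01) was at -0.000194 with DESeq2 size factors, -0.0117 without Sham_Veh2 and -0.00211 without VX_Veh4. Mvk (0.07) was at -0.000177 without VX_Veh2, and Fdft1 (-0.03) at 0.05 to 0.19 without Sham_Veh3, Sham_Veh4 or VX_Veh1. Fdps (0.86 ± 0.434) and Mvd (0.66 ± 0.312) had the highest values, and Hmgcs1 (-0.35 ± 0.178) the lowest, while Acat2 (0.32 ± 0.262), Pmvk (0.22 ± 0.285) and Idi1 (0.15 ± 0.175) lay between. With 1 library left out, Fdps was at 0.234 to 1.14, Mvd at 0.358 to 0.818 and Hmgcs1 at -0.407 to -0.152. Mvd was the one member with every VX_Veh library above every Sham_Veh library, a pattern of 0.935% of genes. By edgeR 0 members and 0% of genes passed, and at an unadjusted p under 0.05 there were 0 members against 8% of genes. DESeq2 and limma-voom also called 0 members, against 0.0678% and 0.024% of genes. Markers of other cells differed in the same comparison: those of adipocytes were lower in VX_Veh for 10 of 10 genes (median -0.27), of macrophages for 8 of 8 (-0.32), of liver for 5 of 5 (-2.62) and of testis and sperm for 12 of 12 (-3.20), with 0 called. Liver markers summed to 23.2 to 2086 CPM in Sham_Veh and 36.8 to 110 CPM in VX_Veh, and testis and sperm markers to 59.7 to 3097 CPM and 98.7 to 267 CPM. Ciliated markers were higher in VX_Veh for 8 of 10 genes (median 0.848) and epididymis markers for 6 of 10 tested genes (median 1.87), with 0 called.

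Under SHU9119 all 9 members had a lower mean after sDVX, with a median log2 fold change of -0.36 against -0.01 over all genes. The values ran from -0.45 ± 0.262 for Acat2 to -0.06 ± 0.209 for Fdft1. Fdps (-0.38 ± 0.430), Mvd (-0.37 ± 0.310), Idi1 (-0.36 ± 0.175), Pmvk (-0.34 ± 0.285), Mvk (-0.29 ± 0.199) and Ggps1 (-0.07 ± 0.0609) lay between. Hmgcs1, at 413 ± 58.1 CPM in Sham_SHU and 308 ± 56.3 CPM in VX_SHU (SD, n = 4), was the one with an unadjusted p under 0.05, against 10.7% of genes. By edgeR 0 members and 0% of genes passed, DESeq2 called 0 against 0.574%, and limma-voom called 1, Idi1, against 4.67%. No member had all VX_SHU libraries below all Sham_SHU libraries, a pattern shown by 2.44% of genes. Liver markers were lower in VX_SHU for 5 of 5 genes (median -3.22), at 86.2 to 2850 CPM in Sham_SHU and 22.9 to 213 CPM in VX_SHU, and testis and sperm markers for 12 of 12 (median -2.21), at 91.7 to 1521 CPM and 56.3 to 384 CPM. Adipocyte markers were lower for 9 of 10 (median -0.17), and 0 of these genes were called.

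The difference between the 2 SHU9119 effects was tested as an interaction. It was negative for all 9 members, meaning a smaller SHU9119 difference after sDVX, with a median of -0.52 against -0.01 over all genes. Exceptions with 1 library left out were Hmgcs1, at 0.00499 without Sham_SHU1 and 0.0235 without VX_SHU2, and Fdft1, at 0.0125 to 0.112 without Sham_Veh1, Sham_Veh2, Sham_SHU2 or VX_Veh4. Fdps (-1.24 ± 0.610), Mvd (-1.03 ± 0.440) and Acat2 (-0.77 ± 0.371) had the largest sizes, Pmvk (-0.56 ± 0.403), Idi1 (-0.51 ± 0.247) and Mvk (-0.35 ± 0.282) came next, and Hmgcs1 (-0.08 ± 0.252), Ggps1 (-0.08 ± 0.0862) and Fdft1 (-0.03 ± 0.296) the smallest. With any single library left out, Fdps was at -1.54 to -0.615, Mvd at -1.22 to -0.729 and Acat2 at -1.02 to -0.588. In the fit to all libraries none of the 9 members passed the edgeR test, each with an adjusted p of 0.999, and 0% of genes passed. At an unadjusted p under 0.05 there was 1 member, Mvd, against 4.76% of genes. DESeq2 and limma-voom called 0 members, against 0.0493% and 0.0779% of genes. The sDVX comparisons and this interaction use the same 16 libraries as the SHU9119 comparisons, so their values are not independent.

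Per kilobase of exon, the first enzymes of the route were not all abundant. Averaged over the 16 libraries, Hmgcs1 stood at 81.7 CPM per kilobase, Fdps at 54.6, Pmvk at 43.6, Acat2 at 40.1, Idi1 at 28.4, Fdft1 at 26.5, Mvk at 13.5, Mvd at 8.54 and Ggps1 at 6.73. Some neighbours in this order held it in every library, namely Acat2 above Idi1, Fdft1 above Mvk and Mvk above Mvd in 16 of 16. Hmgcs1 was above Fdps in 15. Others did not differ beyond their spread, since Fdps was above Pmvk in 9 of 16 libraries, Pmvk above Acat2 in 11, Idi1 above Fdft1 in 10 and Mvd above Ggps1 in 9. In Sham_Veh the level per kilobase of Fdps was 26.7 ± 6.90 CPM, behind Hmgcs1, Pmvk and Acat2, and in Sham_SHU it was 81.1 ± 21.0 CPM, behind Hmgcs1 alone at 119 ± 16.7 CPM (SD, n = 4). Pmvk (31.6 ± 10.7 CPM) and Acat2 (28.6 ± 9.26 CPM) did not differ from Fdps in Sham_Veh beyond these spreads. In Sham_Veh4 Fdps (26.22 CPM) was above both Pmvk (24.27 CPM) and Acat2 (24.29 CPM).

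Across the 16 libraries the 7 members from Acat2 to Fdps varied together. All 36 pairs of the 9 members were computed on log2 CPM, and the 21 pairs among those 7 had Pearson r of 0.553 to 0.908 (median 0.794) and Spearman rho of 0.406 to 0.891. After Benjamini-Hochberg adjustment over the 36 pairs, 28 pairs had a permutation p under 0.05 for Pearson r, among them all 21. By Spearman rho, Hmgcs1 did not pass with Acat2 (adjusted permutation p = 0.16), Pmvk (0.101), Fdps (0.0855) or Mvd (0.0623). The permutations shuffled libraries across the 4 groups, so these p also take in differences between groups. Mvk and Pmvk gave r = 0.901 (permutation p = 1e-05, adjusted p = 0.00012) and rho = 0.847 (permutation p = 4e-05, adjusted p = 3e-04). That p of 1e-05 is the smallest that 1e+05 permutations can give. Without the 2 libraries farthest from the median the 21 values of r were 0.388 to 0.907. After the group means were removed they were 0.164 to 0.822, with a median of 0.594, and Hmgcs1 with the other 6 was the weakest, at 0.164 to 0.400. Pairs with Ggps1 gave r of 0.311 to 0.612, and pairs with Fdft1 0.311 to 0.675. All points share library depth and tissue makeup.

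Genes outside the route followed the members as well. Among 11694 named genes that averaged 5 CPM or more, the 10 with the highest Pearson r to the mean standardised level of the 9 members across 16 libraries were Higd1a (0.969), Eif4a1 (0.965), Dera (0.961), Ube2v1 (0.960), Sec13 (0.959), Ola1 (0.958), H1f2 (0.956), Sec22b (0.956), Lss (0.955) and Mrps18b (0.955). Higd1a encodes a mitochondrial protein, Eif4a1 a helicase of translation initiation, and Sec13 and Sec22b proteins of vesicle transport from the endoplasmic reticulum. Lss, lanosterol synthase, was the one sterol enzyme among them. With group means removed, the 5 highest were Eif4a1 (0.966), H2bc4 (0.961), Polr1d (0.946), Ier3ip1 (0.942) and Cnih1 (0.941). These are descriptions, and depth and tissue makeup of the libraries are common to all of them.

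Genes around the route were counted from lists chosen with earlier results of these data known. Of 11 sterol enzymes after squalene, 2 rose under SHU9119 after sham surgery, where 0.114% of all genes passed, and 9 had an unadjusted p under 0.05, against 19.6% of all genes, all higher, with a median log2 fold change of 1.06. Lss, which makes lanosterol, rose from 29.98 ± 3.95 to 99.4 ± 40.8 CPM, by 1.73 ± 0.291 (SD for levels, n = 4, SE for the change, edgeR adjusted p = 0.0422). Dhcr7, which makes cholesterol from 7-dehydrocholesterol, rose from 11.7 ± 0.961 to 31.3 ± 7.90 CPM, by 1.42 ± 0.20 (edgeR adjusted p = 0.0319). After sDVX the list had a median of 0.41, 0 called by edgeR and 3 with an unadjusted p under 0.05, against 11.6% of all genes. Averaged over surgeries, where 1.87% of all genes passed, Dhcr7 (0.97), Lss (1.12) and Sc5d (0.94) rose, with edgeR adjusted p of 0.0201 to 0.0327.

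Of 8 genes of sterol sensing and SREBP processing, 1 rose after sham surgery, where 0.114% of all genes passed. Insig1, which holds the SREBP complex in the endoplasmic reticulum, went from 190 ± 19.1 to 678 ± 227 CPM (1.84 ± 0.296, edgeR adjusted p = 0.0415). The other 7 lay between -0.05 and 0.25, among them the transcript of SREBP-2, Srebf2, at -0.05 ± 0.179. Of 4 genes that supply cytosolic acetyl-CoA, 0 passed and 4 had an unadjusted p under 0.05, all higher, against 19.6% of all genes. Acly, ATP citrate lyase, gave 2.38 ± 0.530 (edgeR adjusted p = 0.0687), and Acss2, acetyl-CoA synthetase, 2.16 ± 0.546 (adjusted p = 0.0841). After sDVX the same 4 had a median of 0.35 and 0 with an unadjusted p under 0.05, against 11.6% of all genes.

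Enzymes that use farnesyl and geranylgeranyl diphosphate for other products were nearer to 0. Of 12 tested, 0 passed after sham surgery and 2 had an unadjusted p under 0.05, a share close to the 19.6% of all genes and so no result about this list. The 2 with the smallest p were Nus1 (0.27 ± 0.0885, edgeR adjusted p = 0.138), a subunit of the dolichol-chain synthase, and Coq2 (0.27 ± 0.103, edgeR adjusted p = 0.185), which prenylates the ubiquinone ring. The median over the 12 was 0.13, and 0.05 after sDVX. Among 5 copies and mitochondrial counterparts of members, 4 were tested and 0 passed. Acat3, the copy of Acat2, gave -0.72 ± 0.659 (edgeR adjusted p = 0.555). Idi2, a second isomerase gene, was not tested, with at most 2 counts in any library.

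**Figure D5:**
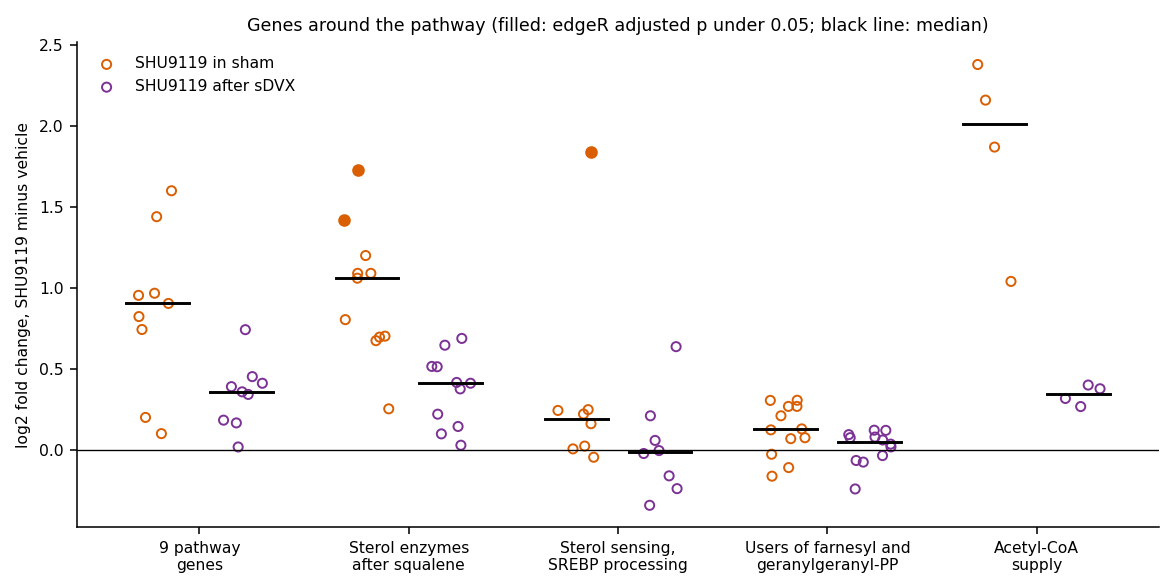
Log2 fold change for SHU9119 minus vehicle of the 9 members and of 4 lists around the route, after sham surgery (orange) and after sDVX (purple). Black lines are medians and filled points passed the edgeR test, with Lss, Dhcr7 and Insig1 as the 3 filled points and medians of 0.90, 1.06, 0.19, 0.13 and 2.02 after sham surgery from left to right.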

How the data were processed

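PolyA RNA of gonadal fat was measured in 16 libraries of 4 groups. The authors deposited a table of whole-number counts per NCBI gene number, with no further normalization seen in its values. Bcl2fastq, TopHat, edgeR and the mm10 build are named in the submitters' processing notes, without versions, and the sources used here do not give the counting tool, the annotation or the strand setting. Of 24454 gene numbers, 24374 were matched to a symbol in GENCODE or RefSeq tables of the same assembly.

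From the counts, edgeR 4.0.16 in R 4.3.3 kept 16682 genes with filterByExpr, scaled by TMM, and fitted 1 mean per group to all 16 libraries (robust quasi-likelihood, 12 residual degrees of freedom). The 6 comparisons used Benjamini-Hochberg adjusted p under 0.05 over all genes. Each SE is the log2 fold change divided by the square root of F, and log2 CPM used a prior count of 2. No 2 replicates were copies (chi-square per degree of freedom 11.8 to 203.9 over 24 pairs). Scripts were tested on simulated data. Pair correlations used 1e+05 permutations.

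All 9 members are named in every comparison. Of each list around the route, the genes that passed are named, or otherwise the 2 with the smallest p, and Srebf2, Tcp1, Ctsb and Idi2 were named after their values were seen. Some genes of these lists are not reported here. Genes like the members are the 10 with the highest r, and 5 with group means removed. Members and lists were chosen with earlier results of these data known. Alternatives were DESeq2 1.42.0, limma-voom with sample weights (limma 3.58.1), other scaling, filters and dispersion, the replicate block, only the groups compared, libraries left out and 3 marker sums as covariates. Covariates of liver, adipocyte or ciliated markers alone were added after seeing the data. All marker sums entered the fits as covariates on the log2 scale. Figures were drawn with matplotlib 3.10.9 in Python 3.11.15.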

Additional observations from a re-analysis of the deposited data

Results flagged for a closer look

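For 3 of the 36 sets of 4 libraries (9 members in 4 groups), 1 library lay far from the other 3, with a gap, as a share of the range, above Dixon's critical value for 4 samples. Chance alone flags about 1 in 20 such sets. Hmgcs1 was at 314.5 CPM in Sham_Veh2, against 201.6 to 210.8 CPM in the other Sham_Veh libraries. Mvk was at 15.06 CPM in VX_Veh1, against 23.95 to 25.26 CPM in the other VX_Veh libraries. Mvk was also at 34.41 CPM in VX_SHU3, against 27.12 to 27.59 CPM in the other VX_SHU libraries.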

How the results depend on the processing

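In the fits as reported, members called were 0 for SHU9119 in sham and after sDVX and 2 for SHU9119 averaged over surgery, and all genes called were 19, 1 and 312. The cause of the changes below was not tested. With DESeq2 size factors the averaged comparison called 4 members, and 0 genes passed after sDVX. With no low-count filter 0 genes passed after sDVX and 167 in the average. With at least 1 CPM in 8 libraries, 1 member and 67 genes passed in sham, 0 genes after sDVX, and 4 members and 570 genes in the average. With the DESeq2 test, 7 members and 1205 genes passed in sham, 1 and 54 after sDVX, and 7 and 2792 in the average, with 11 genes for sDVX under vehicle, 93 under SHU9119 and 8 for the interaction. With limma-voom 8 members and 3874 genes passed in sham, 20 genes after sDVX, and 8 members and 3899 genes in the average, with 4 genes for sDVX under vehicle, 1 member and 779 genes under SHU9119 and 13 genes for the interaction.

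The replicate numbers are shared between groups in the labels, and whether they mark a pairing of libraries was not settled. The 24 same-number pairs had residual correlations of -0.689 to 0.676 (median 0.179), and 13 were over 0.1. The 72 different-number pairs had -0.765 to 0.726 (median -0.0251), and 30 were over 0.1. For 0 libraries was the library of the same number the best match in every other group at once, a strict rule that cannot exclude a pairing. With the replicate block 0 members and 0 genes passed in sham, after sDVX and in the average (Hmgcs1 and Idi1 both at adjusted p = 0.065 in edgeR). With only the 2 groups compared 1 gene passed in sham and 0 after sDVX.

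Without the 6 libraries with epididymis or testis transcripts, 0 genes passed in sham and after sDVX, and 8 members and 4062 genes in the average, with medians over members of 1.21 in sham and 0.90 in the average. Without VX_Veh4 and VX_SHU4, 3 genes passed in sham, 0 after sDVX, and 4 members in the average. With 3 marker covariates 1 gene passed in sham, 0 after sDVX, and 0 members and 0 genes in the average, with medians over members of -0.0376 after sDVX and 0.345 in the average. The liver covariate left 0 genes in sham and 0 members and 3 genes in the average. The adipocyte covariate gave 7 members and 1622 genes in sham, 0 genes after sDVX, and 5 members and 1007 genes in the average. The ciliated covariate left 0 genes in sham and after sDVX and 0 members and 0 genes in the average, with a median over members of -0.016 after sDVX.

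Directions changed in 23 of the members' log2 fold changes under these settings. After sDVX, 3 marker covariates turned Acat2 (-0.208), Pmvk (-0.0531), Fdps (-0.0786), Ggps1 (-0.0376) and Fdft1 (-0.0419), and the ciliated covariate turned Acat2 (-0.196), Pmvk (-0.0224), Fdps (-0.106), Ggps1 (-0.0233) and Fdft1 (-0.016). For sDVX under vehicle, Ggps1 was -0.000194 with DESeq2 size factors, -0.00334 with the stricter filter, -0.00126 with DESeq2, -0.00265 with limma-voom, -0.00247 without VX_Veh4 and VX_SHU4 and -0.00429 with the liver covariate. Fdft1 in that comparison was 0.354 with limma-voom, 0.301 without the 6 libraries, 0.131 with 3 marker covariates and 0.13 with the adipocyte covariate. Fdft1 was also 0.0524 for sDVX under SHU9119 and -0.00241 in the average with 3 marker covariates, and 0.0901 for the interaction without VX_Veh4 and VX_SHU4. Of the remaining values, 655 kept their direction and side of the threshold, 52 passed only under the alternative and 8 no longer passed.

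With 1 library left out at a time, members called ranged from 0 to 7 in sham and from 0 to 6 in the average. All genes called ranged from 0 to 982 in sham, 0 to 1 after sDVX, 3 to 1612 in the average, 0 to 1 for sDVX under vehicle, 0 to 3 under SHU9119 and 0 to 1 for the interaction. Log2 fold changes that crossed 0 were those of Ggps1 after sDVX (-0.0104 to 0.0502) and for sDVX under vehicle (-0.0117 to 0.0389), Fdft1 for sDVX under vehicle (-0.176 to 0.193) and the interaction (-0.244 to 0.112), Hmgcs1 for the interaction (-0.261 to 0.0235) and Mvk for sDVX under vehicle (-0.000177 to 0.238). The lowest count of a member in a library was 196, for Mvd, where counting error is relatively largest.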
